A study of Mus musculus with 18 samples.

Results

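Spleens of diabetic mice that received a fecal microbiota transplant (FMT) were compared with spleens of diabetic mice that received none. The comparison takes 12 of the 18 spleen libraries in the series, all from animals injected with streptozotocin (STZ), a toxin that destroys the insulin-producing beta cells of the pancreas and is used to model type 1 diabetes. The samples were chosen by their labels alone, with no measured value. The 6 transplanted libraries are 3 of A10-FMT and 3 of Con-FMT, and the 6 libraries without a transplant are 3 of STZ and 3 of STZ-A10.

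All animals were ICR mice aged 10 weeks, and the study's methods describe them as male. STZ animals received STZ only. STZ-A10 animals received STZ and alginate oligosaccharide (AOS), a short sugar chain obtained from brown algae, at 10 mg/kg. This group stands in the labels but is not among the treatment groups described in the study's methods. Con-FMT and A10-FMT animals received STZ and then, by mouth once a day, small intestinal contents pooled from donors that had been given water or AOS at 10 mg/kg. Each transplant group therefore traces to 1 pooled inoculum, and dosing ended before the spleens were taken. Whether STZ animals were dosed daily with vehicle is not given in the sources used here, so the transplant and daily dosing cannot be told apart. Animals without STZ, Con on regular diet with saline and A10 with AOS at 10 mg/kg, entered no test here, and their 6 libraries are given only as a range.

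The spleen has a white pulp of B and T cells and a red pulp in which macrophages, lining endothelium and fibroblastic stroma filter the blood and recycle iron from old red cells. Red pulp macrophages need the transcription factor Spi-C and the growth factor CSF1, export iron through ferroportin (Slc40a1) and take up hemoglobin through CD163. Glucocorticoids, the adrenal stress hormones, enter cells and act through a receptor that switches on a well-known set of genes in many tissues, among them the clock gene Per1, the repressor Klf9, the kinase Pdk4 and the chaperone Fkbp5. Uncontrolled diabetes in rodents is commonly accompanied by raised glucocorticoid levels. The expression values used here hold no hormone level, and hormone measurements were not analysed here.

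Values are RPKM, read counts divided by transcript length and by the mapped reads of the library. Differences are in log2(RPKM + 1), which understates the change of genes below a few RPKM. Between 11532 and 12558 genes per library had at least 1 RPKM, and pairs of libraries within a group correlated across genes with r from 0.94 to 0.992. The spleen markers were present in all 12 libraries, with Cd79a of B cells at 189.92 to 971, Cd3e of T cells at 4.96 to 33.88 and Spic of red pulp macrophages at 36.11 to 64.04 RPKM. A10-FMT 3 stood apart, with the lowest Cd79a and Cd3e of the 12 libraries and the highest share of globin transcripts. Globin genes took 32.5% ± 7.58 (SD, 6 libraries) of the summed RPKM in transplanted spleens and 26.2% ± 11.3 in the others, a difference of 6.34 percentage points (exact permutation test over 924 splits, two-sided p 0.286). Single libraries ran from 10.4% to 42.7%. In whole spleen, fewer cells of a type and less RNA per cell cannot be told apart.

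Of 12669 genes tested, 22 (0.174%) passed an adjusted p of 0.05 between transplanted and other spleens, 15 higher (0.118%) and 7 lower (0.0553%). At an unadjusted p under 0.05 there were 414 higher (3.27%) and 1550 lower (12.2%) genes, and the median of all genes was shifted by -0.08. Ranges of the 2 sets did not overlap for 29 higher (0.229%) and 136 lower (1.07%) genes. The lower calls were the glucocorticoid-induced genes Per1, Klf9 and Pdk4, the genes Ston1, Adap2 and Tgfbr3, and the kidney transcript Kap. Of the 15 higher calls 10 are on a list of liver genes. Many of the higher calls passed the filter only through transplanted libraries and are a description only. After libraries were centred on their medians the split at an unadjusted p under 0.05 was 1031 higher and 997 lower. The count of calls was unsteady, at 0 in limma when the sets were fitted as 2 groups (1740 genes at an unadjusted p under 0.05). Leaving out any library but Con-FMT 3 moved it by over 1.5 times, to 1 without STZ 1, STZ 2, STZ-A10 1 or STZ-A10 2, 2 without STZ-A10 3, Con-FMT 1 or Con-FMT 2, 4 without A10-FMT 1, and 42, 48 and 131 without A10-FMT 2, A10-FMT 3 and STZ 3.

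Glucocorticoid-induced genes were lower in transplanted spleens as a group. Of 18 tested, 17 had lower values (67.4% of all genes did), 16 were lower at an unadjusted p under 0.05 against 12.2% of all genes, and 5 did not overlap between the sets against 1.07%. After adjustment 3 passed. The median log2 difference of the list was -0.61, against -0.08 for all genes, and -0.52 against 0.02 after libraries were centred on their medians. The count at an unadjusted p under 0.05 ran from 13 to 16 genes under all 23 alternative settings, and was 15 without A10-FMT 3. It uses a looser threshold than the adjusted calls, so the steadiness of the 2 cannot be compared. The adjusted calls of Per1 and Pdk4 were each kept in 10 of 23 alternatives and that of Klf9 in 5.

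Per1 (chr11:69095217-69109960, GRCm38, plus strand), a repressor of the circadian clock that glucocorticoids induce directly, was at 15.25, 20.24 and 12.23 RPKM in STZ and 15.96, 14.4 and 19.41 in STZ-A10. It was at 8.89, 9.27 and 11.36 in Con-FMT and 7.49, 7.55 and 7.89 in A10-FMT. Every transplanted library lay under every other library, and the Con and A10 libraries ran from 5.42 to 9.14. Per1 fell by 0.82 on the log2 scale (SE 0.122, adjusted p 0.0403), and by 0.72 to 0.92 over the alternatives, of which 10 of 23 kept it past the threshold.

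Klf9 (chr19:23141226-23168134, plus strand), a zinc finger repressor, was at 8.67, 10.89 and 4.95 in STZ, 12.63, 7.59 and 8.76 in STZ-A10, 4.31, 3.38 and 4.36 in Con-FMT and 3.67, 3.72 and 3.45 in A10-FMT. The sets did not overlap, though STZ 3 came close to the transplanted libraries. Klf9 fell by 1.00 (SE 0.168, adjusted p 0.0498), and the Con and A10 libraries ran from 3.55 to 5.07.

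Pdk4 (chr6:5483351-5496309, minus strand), the kinase that holds back pyruvate oxidation and is raised in fasting and diabetes, was at 10.11, 13.92 and 4.13 in STZ and 14.71, 12.13 and 15.3 in STZ-A10. It was at 2.52, 2.75 and 5.41 in Con-FMT and 2.65, 2.31 and 1.45 in A10-FMT. STZ 3 lay under Con-FMT 3, so the sets overlapped by these libraries. Pdk4 fell by 1.69 (SE 0.248, adjusted p 0.0403), to levels that for 5 of the 6 transplanted libraries lay under the highest value of 2.97 in Con and A10.

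Several further members missed the adjusted threshold. Errfi1, a feedback inhibitor of the EGF receptor, was at 18.53 to 61.7 RPKM without a transplant and at 7.04 to 14.69 with one, a log2 difference of -1.51 (adjusted p 0.062) with no overlap. Fkbp5, which tempers the glucocorticoid receptor, had medians of 24.2 and 11.1 (log2 difference -1.02, adjusted p 0.0846), and STZ 3 overlapped the transplanted range. Txnip, an inhibitor of glucose uptake that glucose also induces, had medians of 294 and 167 (-0.86, adjusted p 0.0798). The interleukin-1 decoy receptor Il1r2 (-0.81, adjusted p 0.0846) and the transcription factor Zbtb16 (-0.69, adjusted p 0.0798) did not overlap between the sets. Dusp1, a phosphatase also induced by acute stress and growth factors, was the member with a higher value, 0.09 (adjusted p 0.853), and Tsc22d1 (-0.22, adjusted p 0.442) was the other member above an unadjusted p of 0.05.

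Of the 18 members, 13 had a transplanted mean inside the Con and A10 range (72.2%), which is the share of all genes (72%). The mean without a transplant lay above that range for 11 of the 18 (61.1%), against 12.6% of all genes. These animals were not part of the fit, and no test of a return to the level without STZ was made.

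**Figure D1:**
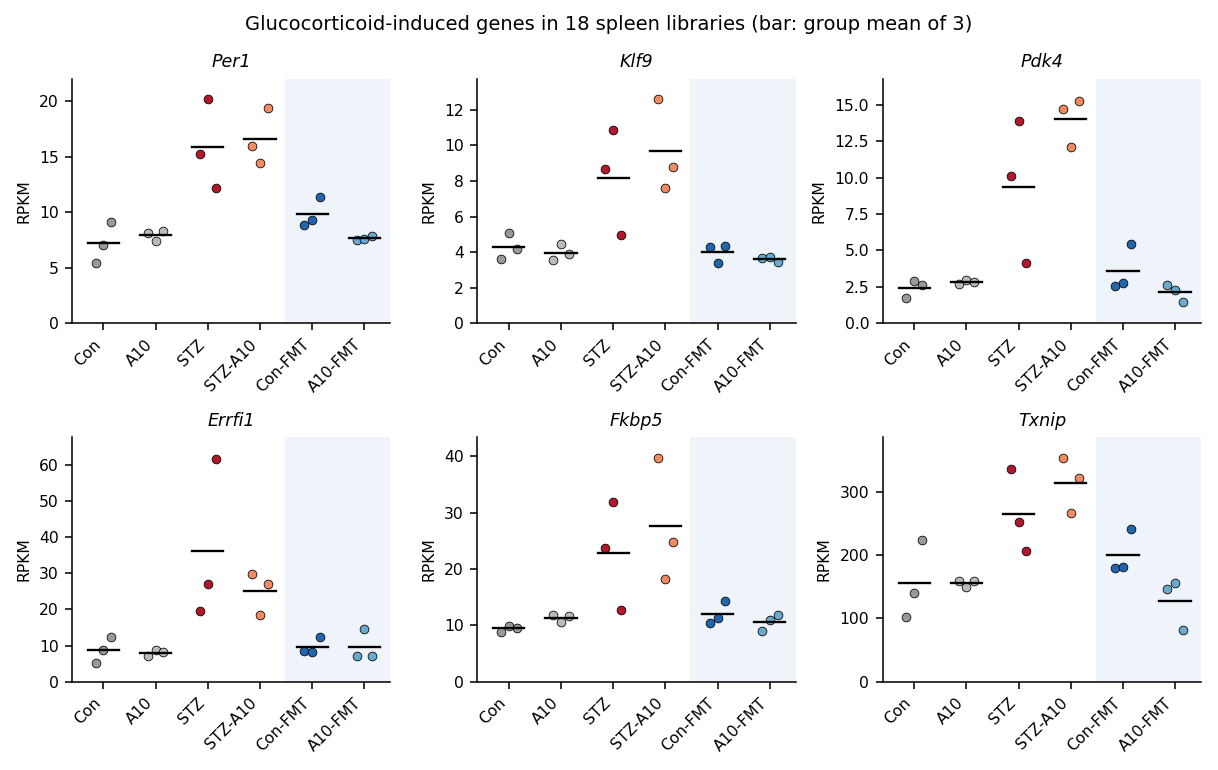
RPKM (linear axis from 0) of 6 glucocorticoid-induced genes in each of the 18 libraries, with points for animals, bars for group means of 3 and the transplant groups shaded. Per1, Klf9 and Errfi1 show no overlap between the STZ and STZ-A10 points and the shaded points, while STZ 3 reaches the shaded range in Pdk4 and Fkbp5.

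The stretch of 250 bases before a gene's start was read from RefSeq (GRCm38.p6) for members of this list. Its members were chosen as known glucocorticoid-induced genes, so an excess of the receptor's motif follows from that choice. The motif counts describe the list and do not bear on the transplant. Matches were sought to the palindromic element bound by the glucocorticoid receptor, written as GNACA and TGTNC with 3 free bases between them, and to CACGTG, the E-box bound by clock factors. Both motifs read the same on either strand. Windows were found for 16 of the 18 genes, 30 windows in all, since a gene can have several starts. The first motif was in 3 of the 30 windows, those of Sgk1, Mt1 and Txnip (18.8% of the 16 genes), and in 0.387% of all 32851 windows (0.44% of 27025 genes). CACGTG was in windows of 6 of the 16 genes (37.5%) and of 6.86% of all genes. The shares of genes are not matched for the number of windows per gene. Capitals mark matches in the windows below, shown for the 2 called genes Per1 and Klf9, which hold none, and for Sgk1 and Txnip, which do.
Per1, chr11:69099902-69100151, plus strand: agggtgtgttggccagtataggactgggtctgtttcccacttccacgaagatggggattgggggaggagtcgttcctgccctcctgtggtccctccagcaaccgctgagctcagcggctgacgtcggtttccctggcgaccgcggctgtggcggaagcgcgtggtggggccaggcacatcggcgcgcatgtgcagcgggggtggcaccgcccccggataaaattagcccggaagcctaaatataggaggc
Klf9, chr19:23140976-23141225, plus strand: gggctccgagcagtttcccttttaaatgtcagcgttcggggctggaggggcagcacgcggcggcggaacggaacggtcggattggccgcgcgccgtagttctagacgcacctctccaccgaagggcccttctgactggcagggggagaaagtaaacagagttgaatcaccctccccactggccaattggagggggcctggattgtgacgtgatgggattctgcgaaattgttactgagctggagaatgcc
Sgk1, chr10:21993640-21993889, plus strand: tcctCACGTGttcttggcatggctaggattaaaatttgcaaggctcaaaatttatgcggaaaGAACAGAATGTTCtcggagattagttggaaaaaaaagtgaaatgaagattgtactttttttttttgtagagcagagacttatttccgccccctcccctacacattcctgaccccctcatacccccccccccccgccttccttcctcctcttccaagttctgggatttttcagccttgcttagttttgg
Txnip, chr3:96557707-96557956, plus strand: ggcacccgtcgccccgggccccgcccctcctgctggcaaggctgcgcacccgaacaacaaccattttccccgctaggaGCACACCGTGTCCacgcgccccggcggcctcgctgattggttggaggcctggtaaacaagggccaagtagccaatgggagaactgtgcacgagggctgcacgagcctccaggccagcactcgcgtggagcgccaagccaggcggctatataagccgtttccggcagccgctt

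In Sgk1, a kinase of salt transport, the match to the receptor motif spans bases 188 to 176 before this start and the E-box bases 246 to 241. In Txnip the match spans bases 172 to 160, in a stretch that also holds an exon of the overlapping gene Gm15441. Mt1, a metal-binding metallothionein, holds GGACATGATGTTC at bases 94 to 82 before its start. Another Per1 start has CACGTG at bases 166 to 161. Sgk1 had a log2 difference of -0.45 (adjusted p 0.23) and Mt1 one of -0.59 (adjusted p 0.177). Binding was not measured.

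The circadian clock list, whose members feed back on each other over the day, had 18 tested genes and all 18 had lower values in transplanted spleens (67.4% of all genes did). Of these, 6 (33.3%, against 12.2%) were lower at an unadjusted p under 0.05, only Per1 passed and the median was -0.32. The list had a median of -0.04 in Con-FMT against STZ and -0.62 in A10-FMT against STZ-A10, where medians of all genes were 0 and -0.20. In STZ-A10 the animals themselves received AOS, so this split cannot be put down to donor type. A10-FMT against Con-FMT had a median of -0.38, against -0.17 for all genes. Dbp, an output gene with one of the largest daily swings, was at 16.19, 16.82 and 17.2 RPKM in Con-FMT and at 6.44, 9.34 and 1.76 in A10-FMT, but spread from 3.69 to 21.16 within STZ. The time of day at which spleens were taken is not given in the sources used here, and its part was not tested.

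Many genes of the red pulp macrophage and endothelial lists were lower in transplanted spleens at the unadjusted level. The summed RPKM of the macrophage list was similar, at 6328 ± 570 (SD, 6 libraries) with and 6274 ± 492 without a transplant. That sum gives most weight to the most abundant members, Ftl1 and Fth1. Of 26 red pulp macrophage and iron recycling genes, 21 had lower values (80.8%, against 67.4% of all genes), 14 were lower at an unadjusted p under 0.05 (53.8%, against 12.2%, and 10 to 17 genes over the alternatives), 0 passed after adjustment and the median was -0.37. Of 21 endothelial genes, 16 had lower values (76.2%), 12 were lower at an unadjusted p under 0.05 (57.1%, and 9 to 13 genes over the alternatives), 0 passed and the median was -0.36. After median centring the 2 medians were -0.28 and -0.27, against 0.02 for all genes. The counts came mainly from A10-FMT against STZ-A10, with 17 macrophage genes (median -0.47) and 16 endothelial genes (median -0.53) lower at an unadjusted p under 0.05, where 24.6% of all genes were. In Con-FMT against STZ they were 4 (median -0.16) and 3 (median -0.09), where 2.01% of all genes were.

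Among the macrophage genes, Spic ran from 49.16 to 64.04 RPKM without a transplant and from 36.11 to 45.56 with one, with no overlap and a log2 difference of -0.36 (adjusted p 0.123). Ferroportin, Slc40a1, was at 52.78, 52.86 and 53.62 in A10-FMT and at 52.97, 57.86 and 72.34 in Con-FMT, against 67.04 to 87.26 without a transplant (-0.45, adjusted p 0.0816). Con-FMT 3 was the library that overlapped. The adhesion molecule Vcam1 (-0.56, adjusted p 0.095), the apoptotic cell receptors Mertk (-0.62, adjusted p 0.0798) and Axl (-0.59, adjusted p 0.0816) and the mannose receptor Mrc1 (-0.46, adjusted p 0.0866) lay in the same range. Hmox1, which opens the heme ring, had a log2 difference of -0.37 (adjusted p 0.284). All members given here had lower values, and the 5 members with higher values, 0 at an unadjusted p under 0.05, are not shown.

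Csf1, the growth factor on which red pulp macrophages depend, was at 41.12, 35.76 and 32.77 RPKM in STZ, 46.21, 35.12 and 29.44 in STZ-A10, 20.73, 21.41 and 23.59 in Con-FMT and 18.55, 21.24 and 10.96 in A10-FMT. All 6 transplanted libraries lay under the other 6, with a log2 difference of -0.91 that missed the threshold (SE 0.156, adjusted p 0.0587). The stromal chemokine Cxcl12 did not overlap either, at 101.35 to 225.28 with a transplant and 255.68 to 387.99 without (-0.82, adjusted p 0.0653). Wt1 and Pdgfra, transcripts of red pulp fibroblasts that were chosen after their values were seen, had log2 differences of -0.80 and -0.98 (adjusted p 0.0846 and 0.0787). Tgfbr3 (chr5:107106570-107289629, minus strand), a co-receptor for TGF-beta, was at 7.06 to 14.47 without a transplant and 3.32 to 6.1 with one. It fell by 0.89 (SE 0.149, adjusted p 0.0484), and 7 of 23 alternatives kept it past the threshold.

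Ston1 (chr17:88597684-88662586, plus strand), an adaptor of endocytosis, was at 5.76, 6.17 and 3.28 RPKM in STZ, 8.8, 4.52 and 6.58 in STZ-A10, 2.03, 2.36 and 2.75 in Con-FMT and 1.49, 1.73 and 2.4 in A10-FMT. The sets did not overlap, and Ston1 fell by 1.10 (SE 0.170, adjusted p 0.0403). Adap2 (chr11:80154105-80178958, plus strand), which regulates ARF6, ran from 5.46 to 8.24 without a transplant and from 2.53 to 5.19 with one, and fell by 0.75 (SE 0.115, adjusted p 0.0403). Ston1 and Adap2 each stayed past the threshold in 9 of 23 alternatives. Of the endothelial genes, VE-cadherin (Cdh5) ran from 7.74 to 11.49 without and 4.85 to 7.37 with a transplant (-0.57, adjusted p 0.062). The scavenger receptor Stab2 of sinus endothelium ran from 12.29 to 15.25 and from 7.17 to 9.96 (-0.46, adjusted p 0.065), and Eng and Flt1 did not overlap either (-0.42 and -0.36, adjusted p 0.0653 and 0.114). The 5 endothelial genes with higher values, 0 at an unadjusted p under 0.05, are not shown.

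**Figure D2:**
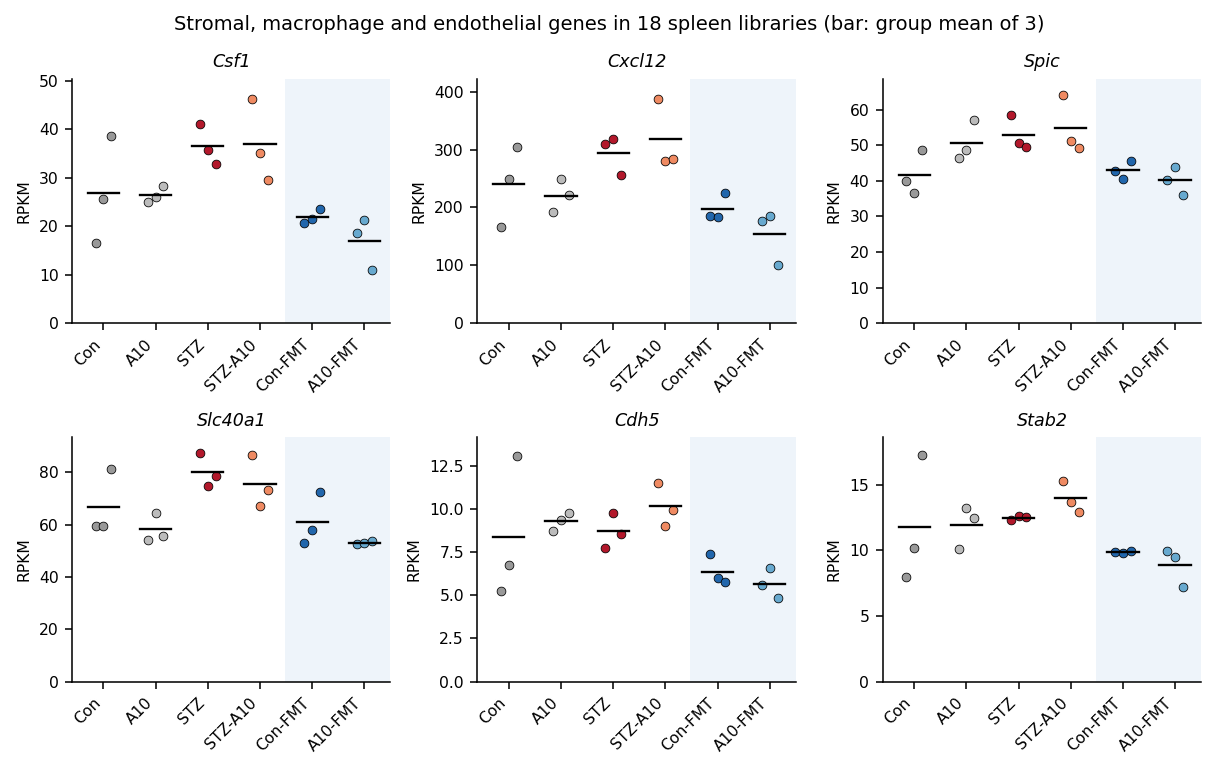
RPKM (linear axis from 0) of stromal (Csf1, Cxcl12), macrophage (Spic, Slc40a1) and endothelial (Cdh5, Stab2) genes in each of the 18 libraries, with points for animals, bars for group means of 3 and the transplant groups shaded. In 5 of the 6 panels the shaded points lie under all STZ and STZ-A10 points, and in Slc40a1 one Con-FMT point overlaps, at 72.34.

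The transplant effect can be read in 2 comparisons that share no library, Con-FMT against STZ (neither donors nor recipients given AOS) and A10-FMT against STZ-A10 (AOS given to the donors or to the animals themselves). In the former 1 gene passed (0.00789%), Kap, and 528 (4.17%) had an unadjusted p under 0.05. In the latter 46 passed (0.363%), 35 higher (0.276%) and 11 lower (0.0868%), and 3986 (31.5%) had an unadjusted p under 0.05, 868 higher and 3118 lower, with the median of all genes at -0.20. After median centring these were 1918 higher and 1593 lower. Single libraries decided the 46, with 0 without STZ-A10 1 or STZ-A10 2, 1 without STZ-A10 3, 11 without A10-FMT 1 and 3234 without A10-FMT 2. It was also 25 without STZ 2 or Con-FMT 1 and 75 without STZ 3. Across genes the log2 differences of the 2 comparisons correlated with r of 0.00934. The other pairing that shares no library, Con-FMT against STZ-A10 with A10-FMT against STZ, gave r of 0.468, so the correlation depends on which groups are paired. Genes are not independent replicates. A test of the difference between the effects called 1 gene, again Kap (0.00789%), with 2054 (16.2%) at an unadjusted p under 0.05, 603 higher and 1451 lower, or 1110 and 876 after median centring.

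At an unadjusted p under 0.05 in both, 107 genes (0.845%) were lower in both comparisons, 17 (0.134%) higher in both and 32 (0.253%) opposite. The 107 include Per1, Klf9, Pdk4, Fkbp5, Errfi1, Zbtb16 and Il1r2 of the glucocorticoid list, Spic, Slc40a1 and Vcam1 of the macrophage list, Cdh5, Stab2 and Eng of the endothelial list, and Csf1, Cxcl12, Wt1 and Pdgfra. The pooled difference is the mean of these 2 comparisons, and the genes were named with it known. Their place among the 107 is therefore no separate support. The glucocorticoid list had medians of -0.64 and -0.83 (-0.64 in each after median centring). Within it, the metallothioneins Mt1 and Mt2 had log2 differences of -1.08 and -1.5 in Con-FMT against STZ and of -0.10 and 0.36 in A10-FMT against STZ-A10, where A10-FMT 3 held 269.48 and 366.77 RPKM. The difference of these effects did not pass after adjustment (adjusted p 0.294 for each).

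Other lists took opposite signs. T cell genes had medians of 0.49 and -0.60, B cell genes of 0.30 and -0.69, erythroid genes of -0.13 and 0.79 and cell cycle genes of -0.12 and 0.71, with the same signs under quantile, median and non-globin scaling. A10-FMT 3, with the lowest lymphocyte markers, enters only the AOS comparison. In that library Cd79a was 189.92 RPKM against 641.99 and 667.05 in the other A10-FMT libraries, and the proliferation gene Mki67 was 341.1 against 203.49 and 147.38. Its part in these medians was not tested. Over the pooled comparison T and B cell lists each had 1 gene lower at an unadjusted p under 0.05, of 29 and 21 tested.

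**Figure D3:**
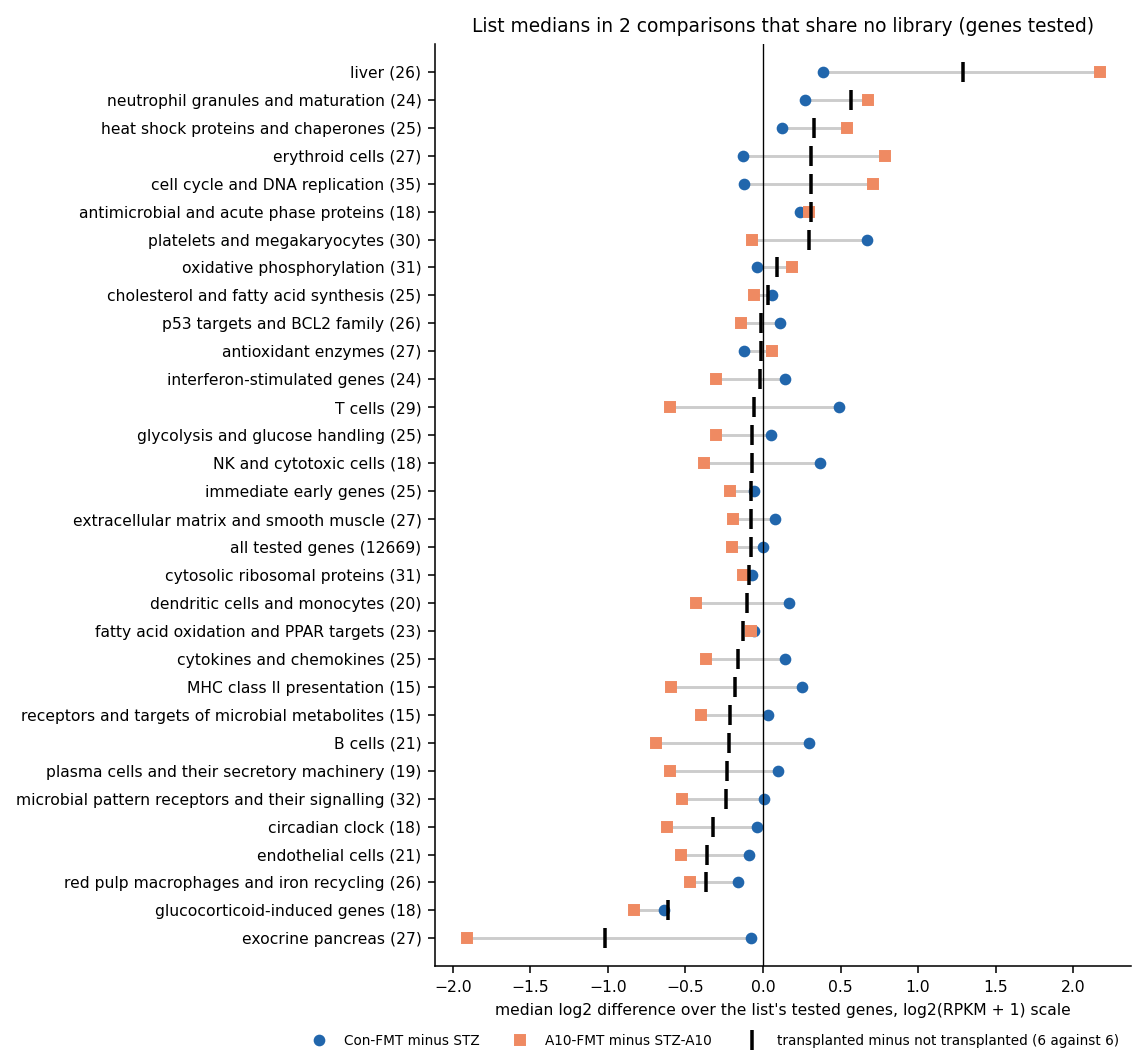
Median log2 difference over the tested genes of each list with at least 15 of them (number in brackets), in Con-FMT against STZ (circles), A10-FMT against STZ-A10 (squares) and both together (bars). Glucocorticoid-induced genes lie left of 0 in both, at -0.64 and -0.83, liver genes lie right of 0 in both, at 0.39 and 2.17, and T and B cell genes change sides.

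The largest differences among called genes were in transcripts typical of other organs. Of 31 genes on the liver list 26 reached the filter, 14 of them in no library without a transplant, so the filter favoured higher values. The counts and p values of this list are therefore a description only. Of the 26, 25 had higher values in transplanted spleens (96.2%, against 32.6% of all genes). After adjustment 10 passed, where 0.118% of all genes were called higher. In A10-FMT against STZ-A10, 17 passed (0.276% of all genes did) and 23 were higher at an unadjusted p under 0.05 (6.85%). In Con-FMT against STZ, 0 passed and 5 were higher at that level (273 of all 12669 genes were). When the filter was dropped, 30 of the 31 had higher values, with a median of 1.15. Of these, 27 were higher at an unadjusted p under 0.05, as were 713 of all genes without the filter. Albumin, Alb (chr5:90460897-90476602, plus strand), was at 0.32, 1.45 and 0.95 RPKM in STZ and 2.79, 0.25 and 0.1 in STZ-A10, against 8.8, 10.32 and 1.19 in Con-FMT and 42.32, 32.58 and 174.72 in A10-FMT. It rose by 3.47 (SE 0.522, adjusted p 0.0403), although Con-FMT 3 overlapped the untransplanted range. Con and A10 spleens held 2.84 to 104.59 RPKM, above every diabetic spleen without a transplant. Apoa2 of lipoproteins, with 0 to 2.45 and 0.96 to 70.62 RPKM, rose by 3.12, Cyp3a11, a drug-metabolizing enzyme, by 2.24, fetuin Ahsg by 2.18, the retinol carrier Rbp4 and the vitamin D carrier Gc by 1.89 each and the fibrinogen chains Fgb and Fgg by 1.51 and 1.33 (adjusted p 0.0403 to 0.0422). Kininogen Kng1 and the cytochrome Cyp2c29 rose by 1.19 and 0.87 (adjusted p 0.0484 for each). Of the liver genes named here, only Alb, Apoa2 and Rbp4 reached 1 RPKM in any library without a transplant.

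The remaining higher calls were Bhmt, an enzyme of methionine remaking, Ces1c, a carboxylesterase, Akr1c6, a steroid dehydrogenase, and Cyp3a25, all known from liver, and the gene model Gm44504. Among the 12 libraries, Ces1c, Akr1c6, Cyp3a25 and Cyp2c29 reached 1 RPKM only in A10-FMT, and Bhmt only in transplanted libraries. The filter therefore favoured higher values for these genes too, and their calls are a description only. Of the 15 higher calls 13 overlapped between the sets, and 9 had a transplanted mean under 5 RPKM. Only Cyp2c29 and Gm44504 did not overlap, and Cyp2c29 was separated by no more than 0.05 against 0.04 RPKM. Gm44504 was at 0 to 1.79 without a transplant and 2.24 to 5.92 with one (log2 1.5, SE 0.201, adjusted p 0.0403). The cytochrome, carboxylesterase and aldo-keto reductase genes belong to families of near-identical copies, so their reads can be split. When all 12 libraries had to reach 1 RPKM, 6 liver genes could be tested, of which 3 were higher at an unadjusted p under 0.05, with a median of 0.41. Whether liver tissue came with the dissected spleens was not tested.

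Pancreatic transcripts followed another pattern. Ins2, which encodes insulin, was listed at 0 in all 6 libraries without a transplant and in all 6 Con and A10 libraries. It was at 2.26, 1.72 and 0.22 RPKM in Con-FMT and 0.21, 19.97 and 1.58 in A10-FMT, so all 6 transplanted libraries held some (adjusted p 0.229). Ins2 passed the filter only through transplanted libraries, so its p is a description only. In the annotation used here, the Ins2 locus shares its interval with another transcript unit. Ins1 was above 0 in 4 of those 6 libraries (0.46 to 7.89) and the islet hormone Iapp in 4 (0.11 to 2.58), again with 0 in all other libraries, and both were under the filter. The exocrine list gave no matching change, with 27 genes tested, 0 at an unadjusted p under 0.05 in either direction and a median of -1.02. Trypsin, Prss2, was at 12.42, 1450.72 and 74.56 in A10-FMT, 110.86 to 245.31 in Con-FMT and 101.25 to 637.61 without a transplant. A10-FMT 2, the library with the most Ins2, Ins1 and Iapp, also held the most trypsin.

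Kap, an androgen-regulated kidney transcript (chr6:133849851-133853762, minus strand), had the smallest p of all genes and rests on 1 group. It was at 23.68, 25.95 and 20.91 RPKM in STZ and at 0.6, 0.3 and 0 in STZ-A10. It was listed at 0 in all Con-FMT libraries and at 0.14, 0 and 0 in A10-FMT. Con libraries held 13.33, 20.06 and 20.97 and A10 libraries 0, so the level did not follow STZ or the transplant alone. Other kidney transcripts were low, with Umod at most 0.2 and Slc34a1 at most 0.5 in the 12 libraries. Neuropeptide Y (Npy), chosen after its values were seen, was at most 0.5 RPKM without a transplant, 7.37, 1.16 and 0 in Con-FMT and 6.2, 8.23 and 10.04 in A10-FMT (log2 2.19, adjusted p 0.062). It too passed the filter only through transplanted libraries.

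**Figure D4:**
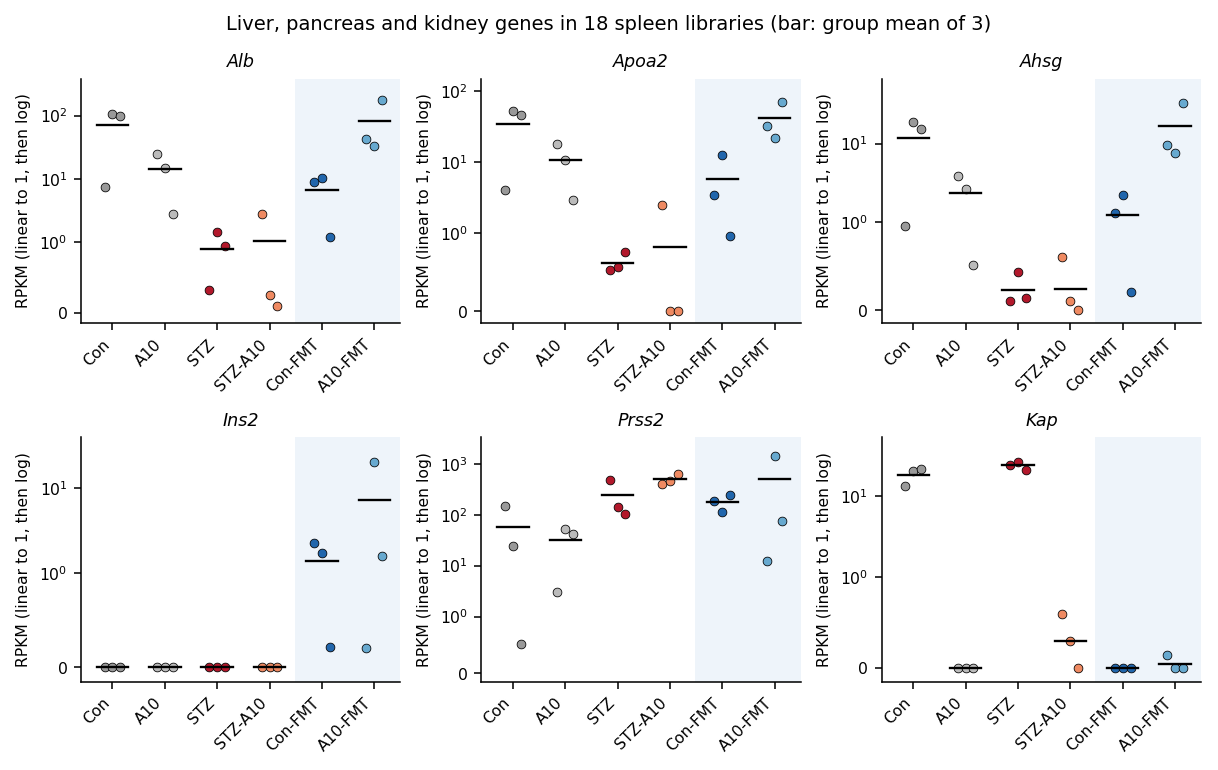
RPKM (axis linear to 1 and logarithmic above) of liver (Alb, Apoa2, Ahsg), islet (Ins2), exocrine pancreas (Prss2) and kidney (Kap) transcripts in each of the 18 libraries, with points for animals and bars for group means of 3. Ins2 is at 0 outside the shaded transplant groups, and Kap is above 1 only in Con and STZ.

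A smaller set of genes was higher in all 6 transplanted libraries at a transplanted mean of at least 5 RPKM, and 0 of the 10 named for the smallest p passed after adjustment. Igfbp2, a binding protein of insulin-like growth factors, was at 4.57, 1.96 and 6.4 RPKM in STZ, 4.22, 6.03 and 6.9 in STZ-A10, 15.82, 15.95 and 10.49 in Con-FMT and 8.49, 17.61 and 8.09 in A10-FMT. Its log2 difference was 1.2 (SE 0.250, adjusted p 0.0798), and the Con and A10 libraries held 11.84 to 17.51. Ass1, an enzyme of arginine synthesis, ran from 15.97 to 19.5 without and 21 to 26.75 with a transplant (0.47, adjusted p 0.062), under the 27.41 to 39.23 of Con and A10.

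The mitochondrial ribosome gene Mrpl14 (0.36, adjusted p 0.0587) and the DNA repair polymerase Polb (0.35, adjusted p 0.0798) did not overlap between the sets. Neither did the cytochrome oxidase factor Cmc2, the small protein gene Tma7 and 1810037I17Rik, with log2 differences of 0.25 to 0.26 (adjusted p 0.152 to 0.156). Cyp51 and Nsdhl, enzymes of cholesterol synthesis, also did not overlap (0.44 and 0.31, adjusted p 0.127 and 0.156). Of the 25 tested genes of cholesterol and fatty acid synthesis, 5 were higher (20%, against 3.27%) and 3 lower (12%, against 12.2%) at an unadjusted p under 0.05, the lower ones being Srebf1, Scd1 and Scd2, and the median was 0.03.

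Genes that sense microbes were examined because the treatment transfers gut microbes. Of 32 tested pattern receptor and signalling genes 30 had lower values and 10 were lower at an unadjusted p under 0.05, which is 31.2% against 12.2% of all genes, while 0 passed. The median was -0.24, and it was 0.01 in Con-FMT against STZ and -0.52 in A10-FMT against STZ-A10, and 0 and -0.32 after median centring. Tlr4, the receptor for bacterial lipopolysaccharide, was at 2.77 to 3.09 in A10-FMT, 2.89 to 3.47 in Con-FMT and 3.26 to 4.49 without a transplant (-0.25, adjusted p 0.201). Tlr9, the receptor for bacterial DNA, had a log2 difference of -0.54 (adjusted p 0.178). Of 15 tested receptors and targets of microbial metabolites 4 were lower at an unadjusted p under 0.05 (26.7%), among them the tryptophan metabolite receptor Ahr (-0.49, adjusted p 0.165).

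Antimicrobial and acute phase genes were divided, with 4 of 18 higher (22.2%, against 3.27% of all genes) and 4 lower (22.2%, against 12.2%) at an unadjusted p under 0.05. Reg3b, an antibacterial lectin made by stressed pancreas and gut, was at 160.4, 31.97 and 12.42 RPKM in STZ, 31.21, 39.88 and 79.85 in STZ-A10, 23.97, 10 and 34.57 in Con-FMT and 0, 4.19 and 0.2 in A10-FMT (adjusted p 0.0832). The 3 A10-FMT libraries lay under the other 9, and Con and A10 libraries held 0 to 1.48. Of 24 neutrophil genes 8 were higher at an unadjusted p under 0.05 (33.3%, against 3.27%), among them the granule gene Elane (0.73, adjusted p 0.309). The 3 lower ones (Cxcr2, Csf3r and Retnlg) were 12.5% of the list, near the 12.2% of all genes. All 25 heat shock and chaperone genes had higher values (32.6% of all genes did), 5 at an unadjusted p under 0.05 (20%, against 3.27%), with Hspa1b at 1.3 to 79.07 RPKM without and 10.18 to 71.94 with a transplant. STZ 3 held the 79.07, and the near-identical Hspa1a and Hspa1b can share reads.

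The study stained or blotted 7 proteins in the spleen, and of their transcripts 0 of 7 passed in limma, with 1 at an unadjusted p under 0.05. The study reported protein in single groups, such as A10-FMT and STZ. Both the measure and the groups therefore differ from the pooled transcript comparison here. Cd163 was at 1.82 to 5.24 RPKM without a transplant and 1.27 to 1.98 with one (-0.65, adjusted p 0.128). Trp53, Bax, Ccr7, Mki67, Ccl21a and Bcl2l1 had log2 differences of -0.07, 0.06, -0.15, 0.30, -0.56 and 0.27 (adjusted p 0.395 to 0.775). Of these, Ccr7, Mki67, Trp53 and Bcl2l1 changed sign under an alternative, and Ccl21a has near-identical copies.

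**Figure D5:**
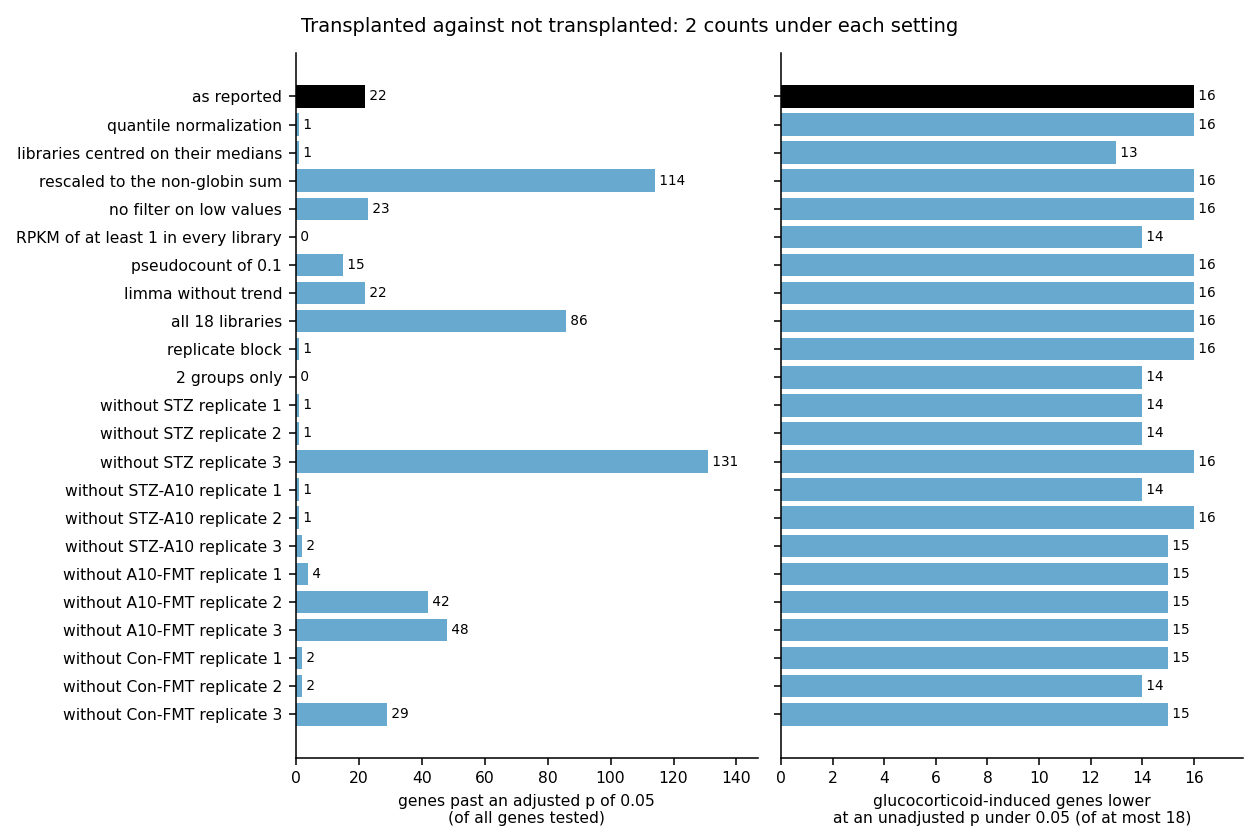
Number of genes past an adjusted p of 0.05 (left) and of glucocorticoid-induced genes lower at an unadjusted p under 0.05 (right) in transplanted against other spleens, for the fit as reported (black) and each alternative setting except array weights. The left count runs from 0 to 131 and the right from 13 to 16.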

How the data were processed

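The libraries were made from poly(A) RNA of frozen spleens and read on an Illumina HiSeq. The deposited values are RPKM per gene, computed by the authors. The study's methods name SOAPaligner, while the submitters' processing notes name Bowtie 0.12.2 and mm10, and the annotation version is not given in the sources used here. RPKM keeps no read counts, so read depth is unknown and counting intervals are not given. Of 19326 lines, 6 with 3 repeated names were left out and 26 names were dates. Among reference gene names and RefSeq symbols, with older names and synonyms, 19109 symbols (98.88%) were found. Gene coordinates are from GENCODE M21 (GRCm38).

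Genes with an RPKM of at least 1 in at least 3 of the 12 libraries were tested on log2(RPKM + 1) with limma 3.58.1 (trend, R 4.3.3), as a model of 4 group means with 8 residual degrees of freedom, and Benjamini-Hochberg adjustment at 0.05, two-sided. This was checked on simulated data. The study's own count test needs reads. Replicates are separate animals as labelled. The main fit did not pair animals across groups by replicate number. Deviations of same-number libraries correlated with r from -0.389 to 0.575, and those of other pairs from -0.587 to 0.515. Named genes were up to 12 per direction past the threshold without overlap and with a mean of at least 5 in the higher set, filled to 10 by smallest p, with called members and the 2 most abundant members of each list and the transcripts of proteins the study examined, of which some are not reported here. The 39 lists, the comparison and the rule were chosen with earlier results of these data known. Alternatives were other scalings, filters, a pseudocount of 0.1, no trend, array weights, all 18 libraries, 2 groups, a replicate block and leaving out each library. List counts under the alternatives were added after seeing the data.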

Additional observations from a re-analysis of the deposited data

Results flagged for a closer look

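In 7 of 60 sets of 6 libraries examined, the highest or lowest library lay far from the other 5. The cut-off is one that independent, normally distributed values pass in about 1 set in 20. Among libraries without a transplant the 7 included Errfi1 in STZ 3, at 61.7 RPKM, and Tma7 in STZ-A10 3, at 124.44. Among transplanted libraries they were Nsdhl in A10-FMT 3, at 16.94, Stab2 in A10-FMT 3, at 7.17, Mki67 in A10-FMT 3, at 341.1, Ins2 in A10-FMT 2, at 19.97, and Kap in A10-FMT 1, at 0.14 where the other 5 were at 0. Of these 7 values, 3 belong to A10-FMT 3. The sets share libraries and some hold values near 0 RPKM, so 7 of 60 cannot be read as an excess over chance.

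The transplant effect on Kap differed between Con-FMT against STZ and A10-FMT against STZ-A10, by 4.32 on the log2(RPKM + 1) scale (SE 0.234, adjusted p of the difference 1.13e-05). Because Con-FMT was listed at 0, this size depends on the pseudocount and is no bound.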

How the results depend on the processing

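The 22 calls between transplanted and other spleens became 1 with quantile normalization, 1 with median centring, 114 after rescaling to the non-globin sum, 0 when all 12 libraries had to reach 1 RPKM, 5097 with array weights, 86 with all 18 libraries, 0 as 2 groups, and 1 to 131 when single libraries were left out. The 1 call in Con-FMT against STZ became 7 without a filter, 0 with the strict filter and 3674 with array weights (1 to 3 over single libraries). The 46 calls in A10-FMT against STZ-A10 became 765 with the non-globin sum, 120 without a filter, 0 with the strict filter, 8117 with array weights and 754 with all libraries (0 to 3234). The 1 call for the difference became 5 without a filter, 0 with the strict filter, 0 with the pseudocount of 0.1 and 7118 with array weights (1 to 2). Array weights did not converge and gave A10-FMT 1 a weight of 1207 against a median of 0.518. The causes of the other shifts were not tested. The strict filter left 6 liver genes to test, 3 of them higher.

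With the replicate block the calls were 1 in the pooled comparison and 0 in A10-FMT against STZ-A10. Deviations from group means correlated over 0.1 in 7 of 18 same-number pairs (median 0.0577) and in 8 of 36 other pairs (median -0.0674). Whether the numbers pair animals is therefore not settled.

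Of 1019 values of 45 named genes under alternatives, 679 kept direction and side of the threshold, 288 lost the call and 47 gained it. Only genes called in the main fit could lose a call, so 288 of 1019 understates how often calls were lost. Another 5 values changed sign. These were Ccr7, 0.11 with array weights and -0.35 to 0.10 over single libraries left out (0.10 without A10-FMT 3), Mki67, -0.08 with array weights, Trp53, 0.03 with median centring, and Bcl2l1, -0.01 to 0.45 over single libraries (-0.01 without STZ 1). The globin difference kept its direction, at 3.19 to 8.48 percentage points. RPKM without counts limits what can be said of genes under 1 RPKM.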

Other observations

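Platelet and megakaryocyte genes had higher values in transplanted spleens for 27 of 30 tested, with 6 higher (20%, against 3.27% of all genes) and 1 lower at an unadjusted p under 0.05 and a median of 0.30. The medians were 0.67 in Con-FMT against STZ and -0.07 in A10-FMT against STZ-A10, the latter turning to 0.12 after median centring. Pf4, a chemokine of platelet granules, was at 133.83, 94.07 and 285.76 RPKM in STZ and 200.25, 291.99 and 180.4 in STZ-A10. It was at 286.48, 367.68 and 237.31 in Con-FMT and 281.11, 289.73 and 230.52 in A10-FMT, while Con and A10 libraries held 291.76 to 897.47 (log2 difference 0.60, adjusted p 0.274).

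Of 31 oxidative phosphorylation genes 28 had higher values, 5 at an unadjusted p under 0.05 (16.1%), with a median of 0.09. Fat genes had a median of 0.74 over 9 tested. Adipoq, made by fat cells, was at 0.38 to 7.27 RPKM with and 0.24 to 3.8 without a transplant, against 1.58 to 20.35 in Con and A10.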
